A study of Homo sapiens with 16 samples.

Results

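The BCL2 family of apoptosis regulators was followed through 10 members in U2OS cells, an established human osteosarcoma line with wild-type p53. The members were chosen by name as the rows of BAX, BAK1, BBC3, PMAIP1, BID, BCL2L11, BMF, BCL2, BCL2L1 and MCL1 in the authors' deposited DESeq2 tables; the rule used no measured value, but the names were picked with earlier results of these data known. All 10 were found in all 4 tables, which share 19344 genes of 23396 listed in any. Poly(A) RNA was sequenced from 16 libraries in 4 groups of 4. Cells transfected with a control siRNA (siControl) or an siRNA against the transcription factor RFX7 (siRFX7) were each given 10 µM Nutlin-3a or its solvent DMSO for 24 h. Nutlin-3a blocks the binding of MDM2 to p53, so that p53 accumulates without DNA damage.

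All groups share the same line and were transfected with an siRNA. The sequence and number of the siRNAs are not given in the sources used here, nor is it stated whether the 4 libraries of a group came from separate cultures, so the p-values measure only the spread between these libraries. The authors' deposited tables compare 2 groups each and give a base mean (the mean normalised count over 8 libraries), a log2 fold change with its standard error (SE) and an adjusted p. They hold no value of a single library, so group means are given in place of sample values, and overlap between libraries could not be examined.

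Proteins of the BCL2 family decide whether the outer mitochondrial membrane stays intact. The effectors BAX and BAK1 form pores that release cytochrome c, the anti-apoptotic proteins BCL2, BCL2L1 (BCL-xL) and MCL1 hold them in check, and the BH3-only proteins BBC3 (PUMA), PMAIP1 (NOXA), BID, BCL2L11 (BIM) and BMF engage the anti-apoptotic proteins or activate the effectors. BBC3, PMAIP1 and BAX are textbook p53 targets, while BCL2L11 and BMF are best known for responses to growth factor withdrawal, cytokine loss and detachment.

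The labels were checked against their targets in the authors' deposited tables. RFX7 was lower with siRFX7 by a log2 fold change of -2.42 ± 0.07 (SE) with DMSO and -2.37 ± 0.07 with Nutlin-3a. The p53 targets CDKN1A and MDM2 rose with Nutlin-3a by 3.24 ± 0.04 and 2.89 ± 0.04 in siControl cells in the authors' deposited table. Of 6 osteoblast or mesenchymal markers all were listed, with VIM at 2483, COL1A1 at 1045 and SPARC at 855 normalised counts per 1000000 (CPM) in siControl cells given DMSO, computed from the authors' deposited tables, and COL1A2 at 0.373. Of 5 blood cell markers only PTPRC and CD68 were listed, each at 0.181 CPM or less. Of 5 epithelial markers 3 were listed. Under DMSO, EPCAM stood at 5.44 CPM in siControl cells and 7.54 in siRFX7 cells, CDH1 at 3.33 and 5.75, and KRT14 at 1.36 and 1.56. The part of these markers in the members' values was not tested. In bulk RNA, fewer cells of a type and less RNA per cell cannot be told apart. The base means of a table summed to between 27946376 and 35311111.

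Promoter sequence was read for the members because the treatment acts through p53, a factor that binds DNA. RefSeq windows on GRCh38.p14, from 250 bases before to 50 bases after a start, were found for 9 of the 10 members, all but MCL1. They were searched for a p53 full site, a pair of p53 decamers head to tail with the core C and G of each decamer intact and at most 3 mismatches elsewhere. The motif reads the same on both strands. Of 35116 windows, 1.12% held such a pair. Among the windows of the 9 members, of which BID, BMF and BCL2L1 had several each, only that of PMAIP1 did. The p53 targets MDM2, FAS (a death receptor gene) and CDKN1A were searched as well. MDM2 and FAS held a pair in some but not all of their windows and are shown beside PMAIP1. The CDKN1A window held no such pair, with 5 mismatches at the fewest. The core bases are in capitals, 5′ to 3′ on the plus strand.
PMAIP1, 185 bases before the start, chr18:59899811-59899830, 3 mismatches: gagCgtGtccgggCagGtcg
MDM2, 94 bases before the nearest start, chr12:68808923-68808942, 2 mismatches: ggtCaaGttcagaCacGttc
FAS, 122 bases before the start, chr10:88991309-88991328, 2 mismatches: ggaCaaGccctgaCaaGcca
BAK1 held a single intact decamer 73 bases before its start, which 6.63% of windows also did; it is printed on the minus strand, the strand of the gene.
BAK1, chr6:33580340-33580349: ggaCatGctc
A match describes the letters in these windows, and the windows of BBC3 and BAX held no such pair; sites outside the windows were not searched.

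Levels were compared between members as CPM per kilobase of the principal transcript, computed from the authors' deposited tables. In siControl cells under DMSO, BAX was highest at 110.1 per kilobase, followed by BCL2L1 at 91.1 and MCL1 at 50.2. PMAIP1 (26.1), BCL2L11 (16.2), BID (11.4), BAK1 (8.69) and BBC3 (5.13) came next, and BCL2 (1.51) and BMF (0.560) were lowest. BCL2L1 thus stood 60.4 times above BCL2, the founding member of the family, in these cells. The spread between libraries is not in the tables, so whether neighbours in this order differ could not be tested. With the length of all exons joined, BCL2L1 was first and BAX had rank 3, since the principal BAX transcript is 793 bases and the joined exons are 2587 bases.

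With Nutlin-3a added, BBC3 moved from rank 8 to rank 5 of the 10 members in siControl cells, at 22.9 CPM per kilobase. The level of BCL2L1 relative to BBC3 was 17.8 with DMSO and 7.07 with Nutlin-3a in siControl cells, and 22.1 and 8.39 in siRFX7 cells. The level of MCL1 relative to PMAIP1, its BH3-only partner, was 1.92 and 1.72 in siControl cells and 3.37 and 2.78 in siRFX7 cells. CPM levels are scaled to equal summed counts in every group, while the deposited fold changes use the authors' size factors. On the CPM scale a log2 fold change lies 0.04 higher for Nutlin-3a in siControl cells, 0.05 higher in siRFX7 cells, and 0.06 lower for siRFX7 under either treatment, so levels and fold changes printed together differ by that much. The ratios between members are of RNA levels and carry no error, since they rest on group means. The effectors together held 37.0% of the members' summed level per kilobase in siControl cells under DMSO and 43.5% under Nutlin-3a, and with joined exon lengths 21.5% and 25.3%.

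**Figure D1:**
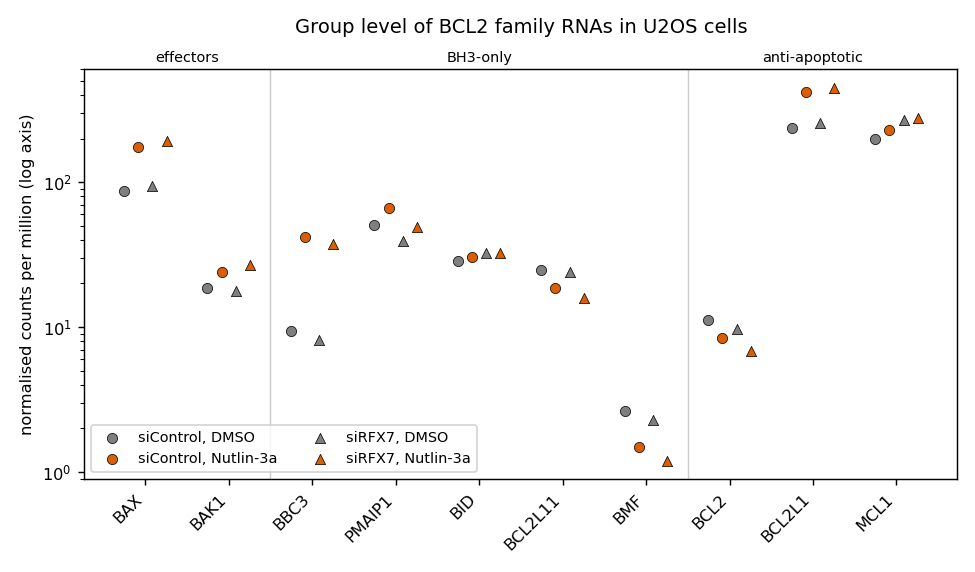
Group means of the 10 members in CPM on a log axis, 1 point per group (siControl or siRFX7, DMSO or Nutlin-3a, 4 libraries each, no error available). BBC3 shows the widest gap between DMSO and Nutlin-3a, from 9.42 to 42.0 in siControl cells, while BID stays between 28.5 and 32.5 in all groups.

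Nutlin-3a in siControl cells asks how the family responds to Nutlin-3a without siRFX7. No group lacked p53, so the part of p53 in these responses was not tested. Of the 10 members, 9 were called at an adjusted p under 0.05, with 6 higher and 3 lower, where 37.9% of all 23353 genes were called in the authors' deposited table, 18.3% upward and 19.6% downward. The median log2 fold change of the members was 0.26, against 0.01 over all genes. The increase was led by BBC3, BAX and BCL2L1, and the decreases were in BMF, BCL2 and BCL2L11.

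Among the effectors, BAX had group means of 87.3 CPM with DMSO and 176 with Nutlin-3a. Its row in the authors' deposited table gives a log2 fold change of 0.97 ± 0.05 (adjusted p = 2.84e-101, DESeq2), rank 250 from the top of 13525 genes whose base mean was 100 or more. BAK1, the other pore former, rose by 0.34 ± 0.06 in the authors' deposited table (adjusted p = 2.66e-07, DESeq2), from 18.6 to 24.1 CPM. BAX lies on chromosome 19 at 48954815 to 48961798 and BAK1 on chromosome 6 at 33572547 to 33580293 (GRCh38, GENCODE 29). BAK1 is uncertain because the pseudogene copy BAK1P1 had a base mean that was 61.5% of that of BAK1 in the same table, and reads could be split between them. BAK1P1 itself had a log2 fold change of 0.20 ± 0.08 in the authors' deposited table.

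The BH3-only genes split. BBC3 (chromosome 19, 47220822 to 47232766) had the largest response of the members, 2.12 ± 0.07 on the log2 scale in the authors' deposited table, a 4.34-fold increase (adjusted p = 1.24e-199, DESeq2) at rank 60 of 13525. Its group means were 9.42 and 42.0 CPM. PMAIP1 (chromosome 18, 59899948 to 59904306), whose promoter window holds the p53 pair printed above, rose by 0.34 ± 0.07 in the authors' deposited table, from 50.9 to 66.2 CPM (adjusted p = 2.60e-06, DESeq2). BID, which links death receptors to mitochondria, had 0.06 ± 0.06 in the authors' deposited table (adjusted p = 0.435, DESeq2), with means of 28.5 and 30.7 CPM.

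BCL2L11 and BMF fell in the same cells. The authors' deposited table gave BCL2L11 -0.45 ± 0.06 (adjusted p = 2.09e-12, DESeq2), from 24.6 to 18.5 CPM. BMF had -0.87 ± 0.18 (adjusted p = 9.62e-06, DESeq2), from 2.63 to 1.48 CPM, on a base mean of 72.8 in the authors' deposited table, so its size is the least precise of the members. BCL2L11 (chromosome 2, 111119378 to 111168447) shares 10.9% of its exon bases with the antisense gene MIR4435-2HG, whose base mean was 227% of its own. The library kit is stranded per the labels, but the strand setting of the read counting is not given in the sources used here, so reads of the overlap cannot be assigned with certainty.

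The anti-apoptotic genes did not move as 1 group. BCL2L1 (chromosome 20, 31664452 to 31723989) rose from 238 to 422 CPM, a log2 fold change of 0.79 ± 0.05 in the authors' deposited table (adjusted p = 1.27e-59, DESeq2) and rank 394 of 13525. MCL1 (chromosome 1, 150574551 to 150579738) rose by 0.18 ± 0.04 (adjusted p = 6.49e-06, DESeq2) in the authors' deposited table, an increase of 13.1%. BCL2 (chromosome 18, 63123346 to 63320128) fell by 0.47 ± 0.09 (adjusted p = 7.47e-07, DESeq2) in that table. BCL2L1, the anti-apoptotic gene with the highest level, thus had a larger log2 fold change than the effector BAK1 and the BH3-only gene PMAIP1. The antisense gene ABALON overlaps 43.0% of the BCL2L1 exon bases, and its base mean was 0.109% of that of BCL2L1.

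**Figure D2:**
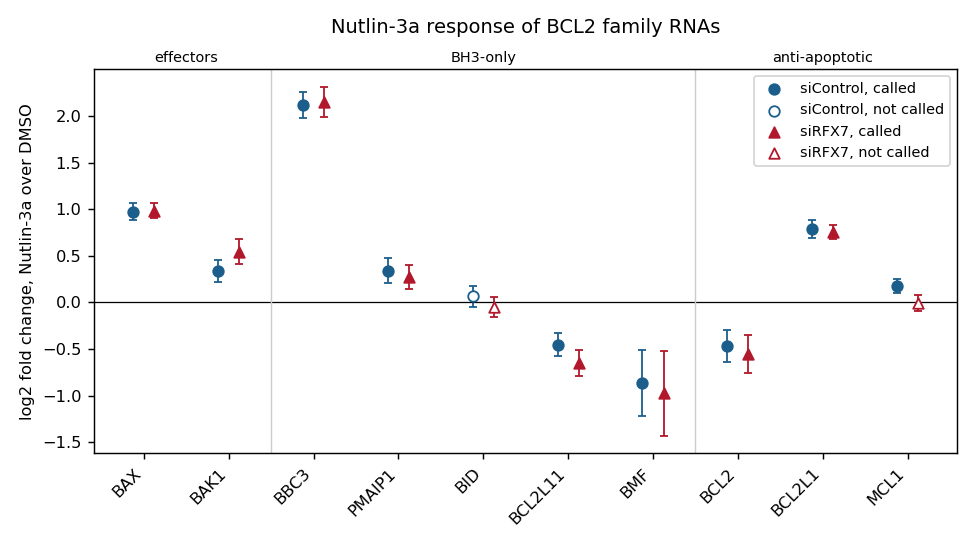
Log2 fold change of Nutlin-3a over DMSO for the 10 members in siControl and siRFX7 cells, with 95% intervals from the deposited standard errors. BBC3 stands apart at 2.12 and 2.15, BAX and BCL2L1 follow, and BMF, BCL2 and BCL2L11 lie below 0 in both.

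The same comparison in siRFX7 cells asks whether the family responds when RFX7 is depleted. The 8 libraries share none with those of the siControl comparison. Of the members 8 were called, 5 higher and 3 lower, where 39.1% of 21382 genes were called in the authors' deposited table, 18.7% upward and 20.3% downward. The members' median was 0.13, against 0.01 over all genes. BBC3 rose by 2.15 ± 0.08, a 4.43-fold increase (adjusted p = 2.04e-141, DESeq2, rank 38 of 12867), from 8.20 to 37.5 CPM in the authors' deposited table. BAX rose by 0.98 ± 0.04 and BCL2L1 by 0.75 ± 0.04 in the authors' deposited table, beside 0.97 and 0.79 in siControl cells.

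BAK1 rose by 0.55 ± 0.07 and PMAIP1 by 0.27 ± 0.07 in siRFX7 cells in the authors' deposited table. The falling genes were again BCL2L11 at -0.65 ± 0.07, BMF at -0.97 ± 0.23 and BCL2 at -0.56 ± 0.10 in the authors' deposited table. BID had -0.05 ± 0.06 in that deposited table (adjusted p = 0.535, DESeq2). MCL1, which was called in siControl cells, had -0.0045 ± 0.04 here (adjusted p = 0.952, DESeq2) in the authors' deposited table. BAK1P1 rose as well, by 0.50 ± 0.09 in the authors' deposited table, so the BAK1 value stays uncertain in these cells too.

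The difference between the responses was tested directly, as the log2 fold change in siRFX7 cells minus that in siControl cells, both from the authors' deposited tables. At an adjusted p under 0.05 no member was called, where 0.937% of 21339 genes were; at an unadjusted p under 0.05, 3 members and 6.32% of genes were. For BBC3 the difference was 0.03 ± 0.11, with a 95% interval from -0.18 to 0.24. For BAX it was 0.01 ± 0.06 (-0.11 to 0.13), and for BCL2L1 -0.03 ± 0.06 (-0.16 to 0.09). These 3 genes, the members with the largest increases, had differences whose intervals lie between -0.18 and 0.24, beside a median size of 0.32 among the 200 genes called.

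MCL1 had the smallest p of the members. The response in siRFX7 cells minus that in siControl cells was -0.18 ± 0.06, with an interval from -0.29 to -0.07 (adjusted p = 0.0893 over all genes, from the DESeq2 tables; unadjusted p = 0.00103). BAK1 differed by 0.21 ± 0.09 (0.03 to 0.39, adjusted p = 0.613) and BCL2L11 by -0.20 ± 0.10 (-0.38 to -0.01, adjusted p = 0.724). These 3 values missed the threshold, which does not show that the responses are equal. For BMF the interval ran from -0.69 to 0.47, the widest of the members.

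**Figure D3:**
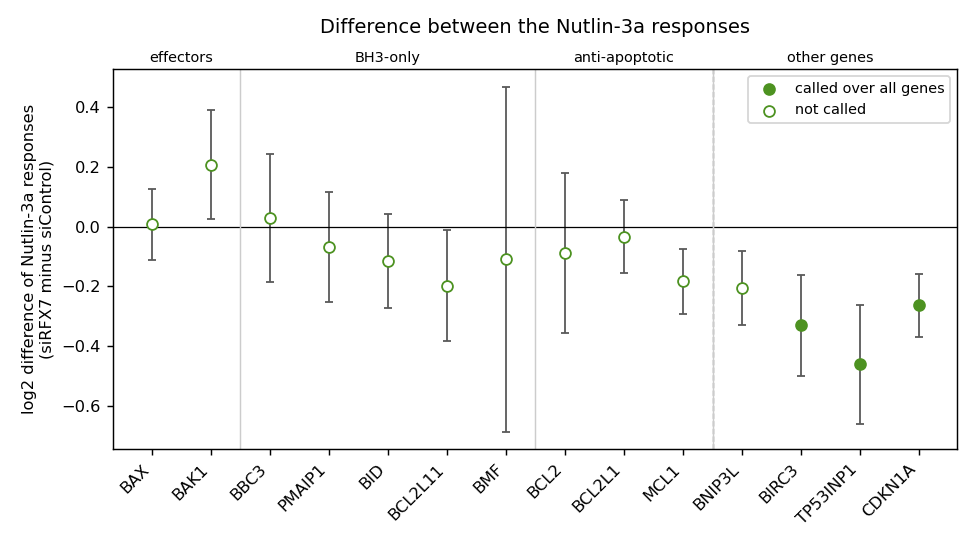
Difference of the Nutlin-3a responses (siRFX7 minus siControl, log2 scale) with 95% intervals. The 10 members stand left of the dashed line and the other genes BNIP3L, BIRC3, TP53INP1 and CDKN1A right of it. Of the members, MCL1, BAK1 and BCL2L11 have intervals that leave out 0, and no member passes the adjusted threshold. The intervals of all the other genes drawn leave out 0, and BIRC3, TP53INP1 and CDKN1A pass the adjusted threshold. These other genes were drawn by name and do not stand for all genes tested. Among those not drawn, FAS had 0.19 (0.03 to 0.36) and ZMAT3 0.10 (-0.03 to 0.22), neither past the adjusted threshold.

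RFX7 depletion without Nutlin-3a asks which members change with siRFX7 when only DMSO is given. Whether a change comes from the loss of RFX7 or from another effect of the siRNA was not tested. Of the 10 members 5 were called, 4 higher and 1 lower, where 37.4% of 19511 genes were called in the authors' deposited table, 19.9% upward and 17.5% downward. The members' median was 0.02 and that of all genes -0.0024. MCL1 was the member that rose most, by 0.50 ± 0.04 on the log2 scale of the authors' deposited table (adjusted p = 4.66e-31, DESeq2), a 41.5% increase at rank 467 of 13170. Its levels were 197 and 267 CPM, a log2 difference of 0.44 on that scale. BID rose by 0.25 ± 0.06 (adjusted p = 2.95e-05, DESeq2), BAX by 0.18 ± 0.04 and BCL2L1 by 0.17 ± 0.05 in the authors' deposited table. Scaled to equal summed counts, 3 members were called higher and 2 lower: BCL2L1 missed the threshold (0.11, adjusted p = 0.0508, from the DESeq2 values) and BCL2 passed it (-0.22, adjusted p = 0.0396). The share of all genes called with that scaling is not given here, and the 37.4% belongs to the deposited calls.

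PMAIP1 was the member that fell, by 0.31 ± 0.07 on the log2 scale in the authors' deposited table (adjusted p = 3.68e-05, DESeq2), from 50.9 to 39.4 CPM. The protein it encodes binds MCL1, and the pair moved in opposite directions in this comparison. BBC3 had -0.14 ± 0.09 (adjusted p = 0.254, DESeq2) and BAK1 -0.0022 ± 0.07 (adjusted p = 0.984, DESeq2) in the authors' deposited table. BCL2L11 had 0.03 ± 0.06, BMF -0.13 ± 0.18 and BCL2 -0.16 ± 0.09 in the authors' deposited table, none past the threshold. MIR4435-2HG, the antisense gene that overlaps BCL2L11, rose by 0.41 ± 0.04 in that deposited table. Its part in the BCL2L11 value was not tested.

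RFX7 depletion under Nutlin-3a asks the same with p53 active. Again 5 members were called, 4 higher and 1 lower, where 32.6% of 20335 genes were called in the authors' deposited table, 17.2% upward and 15.4% downward. The members' median was 0.02, beside -0.0053 over all genes. In the authors' deposited table MCL1 rose by 0.32 ± 0.04 (adjusted p = 9.13e-17, DESeq2), a 24.8% increase, and PMAIP1 fell by 0.37 ± 0.07 (adjusted p = 1.83e-07, DESeq2). The levels of MCL1 were 229 and 275 CPM, a log2 difference of 0.26 on that scale, and those of PMAIP1 were 66.2 and 49.1 CPM. BAX rose by 0.19 ± 0.04, BCL2L1 by 0.14 ± 0.04 and BAK1 by 0.21 ± 0.06 in the authors' deposited table. BID had 0.14 ± 0.06 (adjusted p = 0.0527, DESeq2) and BCL2 -0.24 ± 0.10 (adjusted p = 0.0527, DESeq2); both passed when the adjustment was limited to genes whose base mean was 100 or more, each at 0.0380. Scaled to equal summed counts, 3 members were called higher and 3 lower: BCL2L1 missed the threshold (0.08, adjusted p = 0.108, from the DESeq2 values), while BCL2L11 (-0.22, adjusted p = 0.0119) and BCL2 (-0.30, adjusted p = 0.0126) passed it. The 32.6% belongs to the deposited calls, and the share of all genes called with equal summed counts is not given here.

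This comparison shares its siRFX7 and siControl Nutlin-3a libraries with the Nutlin-3a comparisons, so the values of the members are set side by side and not correlated. BBC3 had -0.10 ± 0.07, BCL2L11 -0.16 ± 0.07 and BMF -0.24 ± 0.24, none past the threshold in the authors' deposited table. MIR4435-2HG rose by 0.45 ± 0.05 with siRFX7 here, and its part in the BCL2L11 value was not tested. Of the 6 members that rose with Nutlin-3a in siControl cells, PMAIP1 was the only one called lower with siRFX7 in both treatments.

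**Figure D4:**
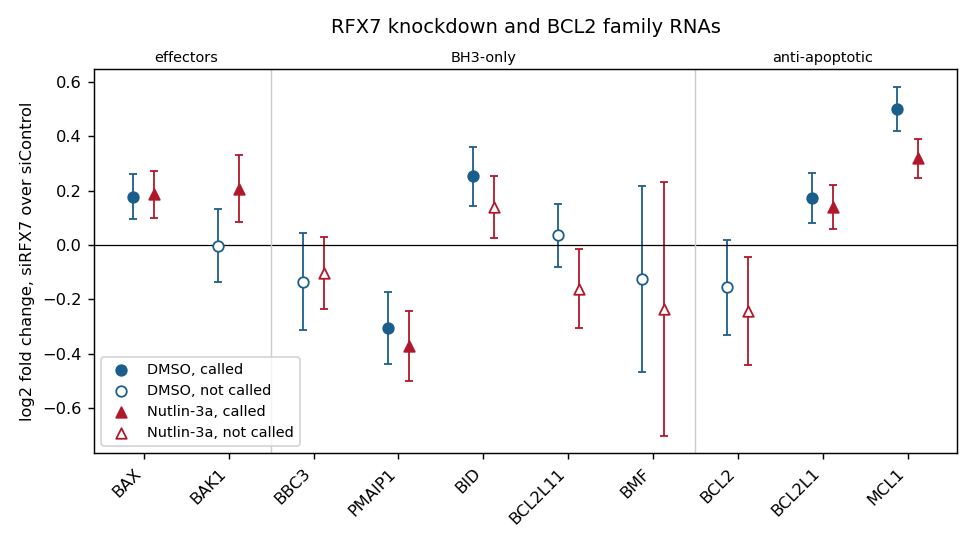
Log2 fold change of siRFX7 over siControl for the 10 members under DMSO and under Nutlin-3a, with 95% intervals. MCL1 lies highest at 0.50 and 0.32 and PMAIP1 lowest at -0.31 and -0.37.

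A gene's 3′ untranslated region can carry matches to the seed of an siRNA, and the siRNA sequence is not given in the sources used here. The log2 fold changes with siRFX7 under DMSO and under Nutlin-3a were averaged per gene. Over 11090 genes, those holding the 7-base word GTATCTA (811 genes, 7.31%) had a mean of -0.21, against 0.03 for the others. The word was the lowest of 16384 scanned on these same values, so this is a description. Only the principal transcript of each gene was read. In that transcript's 3′ untranslated region none of the 10 members holds the word. None holds GACAGTA there either, the word with the highest standardised difference. The region read was 162 bases in BAX and 817 in BCL2L11, and other transcripts were not searched. Of the other genes named here that were searched, BIRC3 and RFX7 each hold 1 match to GTATCTA. RFX7 and ZMAT3 each hold 1 match to GACAGTA. The search did not cover every gene named here, and MDM2 and the genes nearest BBC3 were left out. The part of these matches in the BIRC3, RFX7 and ZMAT3 values was not tested.

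Other family homologues were read from a list of 13 genes, 11 of which were in the siControl Nutlin-3a table. There 4 rose and 1 fell: BCL2A1, an anti-apoptotic relative, by 0.67 ± 0.17, BCL2L13 by 0.29 ± 0.04, BNIP3L, a mitophagy receptor, by 0.28 ± 0.04 and BCL2L2 by 0.16 ± 0.06, and BCL2L12 fell by 0.59 ± 0.06 in the authors' deposited table. In siRFX7 cells 1 rose (BCL2L13, 0.34 ± 0.05) and 2 fell (BCL2L12, -0.64 ± 0.07, and BNIP3, -0.27 ± 0.07) in the authors' deposited table. With siRFX7 under DMSO, BNIP3 rose by 0.45 ± 0.06 and BNIP3L by 0.26 ± 0.04, while BOK, an effector-like relative, fell by 0.20 ± 0.05 in the authors' deposited table. Under Nutlin-3a, BNIP3 rose by 0.26 ± 0.07 and BOK fell by 0.24 ± 0.06 in the authors' deposited table. BNIP3 and BCL2L12 are uncertain: the pseudogene BNIP3P1 had 59.9% to 61.4% of the base mean of BNIP3 and log2 fold changes with siRFX7 of 0.37 ± 0.08 and 0.29 ± 0.08 in the authors' deposited tables, and BCL2L12 shares 33.1% of its exon bases with IRF3 on the other strand. With Nutlin-3a in siControl cells, IRF3 had -0.02 ± 0.05 and the pseudogene BCL2L12P1 -0.64 ± 0.14 in the authors' deposited table. BCL2L2 shares 19.4% of its exon bases with BCL2L2-PABPN1 on the same strand, and BAD 23.7% with GPR137 on the other strand. The part of these overlaps and copies in the values was not tested. The median of the 11 with Nutlin-3a in siControl cells was 0.09, beside 0.01 over all genes. Of all genes, 37.9% were called with Nutlin-3a in siControl cells and 39.1% in siRFX7 cells. With siRFX7 the shares were 37.4% under DMSO and 32.6% under Nutlin-3a. BAD, BIK, HRK and BCL2L15 were not called in any table that lists them, and BCL2L10 and BCL2L14 are not analysed here.

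Downstream and upstream genes were read from lists. Over all genes, 37.9% were called with Nutlin-3a in siControl cells and 32.6% with siRFX7 under Nutlin-3a. Of 13 apoptosome, caspase and inhibitor genes, 2 rose and 3 fell with Nutlin-3a in siControl cells: BIRC3, a ubiquitin ligase of the inhibitor of apoptosis family, was highest at 0.80 ± 0.06 and CYCS, which encodes cytochrome c, lowest at -0.34 ± 0.05 in the authors' deposited table. With siRFX7 under Nutlin-3a, 2 of the 13 rose and 6 fell, with BIRC3 lowest at -1.20 ± 0.06 in the authors' deposited table. The median of the 13 was -0.04 with Nutlin-3a in siControl cells and -0.12 with siRFX7 under Nutlin-3a, beside 0.01 and -0.0053 over all genes. Of 8 genes of MCL1 turnover and outer membrane channels, FBXW7, a ubiquitin ligase subunit that acts on MCL1, rose by 0.77 ± 0.06 in siControl cells with Nutlin-3a, and VDAC1, VDAC2 and VDAC3 fell, with VDAC3 lowest at -0.23 ± 0.05 in the authors' deposited table. Under siRFX7 with Nutlin-3a, 3 of the 8 rose, with BTRC at 0.34 ± 0.05 highest, and VDAC1 fell by 0.11 ± 0.04 in the authors' deposited table. The medians of the 8 were -0.13 and 0.10 in these comparisons.

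Of 11 p53 targets with apoptotic roles outside the family, 10 rose and 1 fell with Nutlin-3a in siControl cells, with a median log2 fold change of 1.33 against 0.01 over all genes. TP53INP1 was highest at 3.33 ± 0.07 and SIVA1 the one that fell, by 0.55 ± 0.06 in the authors' deposited table. With siRFX7 under Nutlin-3a, 2 of the 11 rose and 5 fell, from ZMAT3 at 0.36 ± 0.04 to TP53INP1 at -0.48 ± 0.05 in the authors' deposited table, and the median was -0.09. Over all genes, 37.9% were called in the former comparison and 32.6% in the latter. Of 8 transcription factors that act on BH3-only genes, 3 rose and 3 fell with Nutlin-3a in siControl cells, with DDIT3 at 0.56 ± 0.11 and E2F1 at -1.17 ± 0.04 at the ends in the authors' deposited table. Their median was -0.04. JUN was the one gene of these 8 called with siRFX7 under Nutlin-3a, at -0.29 ± 0.04 in the authors' deposited table.

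The genes with the profile most like that of BBC3 over the 4 log2 fold changes in the authors' deposited tables were LINC02055, FAM198B, PARD6G, ALOX5 and EBI3. Their Euclidean distances were 0.103, 0.206, 0.293, 0.358 and 0.381 among 12186 genes whose base mean was 100 or more in every table. LINC02055 had 2.06 ± 0.09 and 2.08 ± 0.10 for Nutlin-3a in siControl and siRFX7 cells in the authors' deposited tables.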

How the data were processed

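Poly(A) RNA-seq was done on 16 libraries of U2OS cells, 4 per group. Per the submitters' processing notes, bcl2fastq 2.19.1.403, Trimmomatic 0.39, cutadapt 2.10, FastQC 0.11.9, SAMtools 1.10, Picard, featureCounts 1.6.5 and DESeq2 1.20.0 were used with build hg38; the aligner and annotation are not given in the sources used here. The authors deposited 4 comparison tables. Each deposited base mean is a signal, the mean normalised count. The deposited log2 fold changes and SEs are on the log2 scale. The deposited Wald statistic is a score. The deposited p-values are adjusted over each whole table.

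Calls were taken at the deposited adjusted p under 0.05. The difference of responses is a subtraction of 2 tables that share no library, its SE the root of the summed squared SEs, with a two-sided normal p and Benjamini-Hochberg adjustment. Group levels were computed from base means and fold changes, per 1000000 (CPM) of the group's summed normalised counts, so ratios of levels differ from the deposited folds; the 2 tables holding a group differed by at most 0.690% over the 40 levels. Python 3.11.15, pandas 2.3.3 and scipy 1.17.1 were used, and the scripts were tested on simulated data. Genes named were all 10 members, every listed homologue, the called gene with the highest and lowest log2 fold change in each other list, and the 5 genes nearest BBC3; 1 result under this rule is not reported here. The members and lists were chosen with earlier results of these data known. GENCODE 29 held 99.9% of the gene identifiers. Alternatives were a stricter threshold, a size threshold, a base mean of at least 100, a rescaled statistic and median centring; equal summed counts and joined exon lengths were added after seeing the data.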

Additional observations from a re-analysis of the deposited data

Results flagged for a closer look

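The responses to Nutlin-3a with and without RFX7 depletion were compared by their difference (siRFX7 minus siControl). No family member passed an adjusted p of 0.05, where 200 of 21339 genes (0.937%) did. Of the other genes named here 3 passed, and they are listed because they passed. TP53INP1, a p53 target with a pro-apoptotic role, rose by 3.33 in siControl cells and 2.87 in siRFX7 cells, a difference of -0.46 (log2 scale, adjusted p = 0.00143). CDKN1A rose by 3.24 and 2.98, a difference of -0.26 (adjusted p = 0.000305). BIRC3 rose by 0.80 and 0.47, a difference of -0.33 (adjusted p = 0.0175), which missed a threshold of 0.01.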

How the results depend on the processing

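No value past its threshold changed sign under any alternative tried. Among values that were not called, MCL1 for Nutlin-3a in siRFX7 cells turned from -0.0045 to 0.0027 with the rescaled statistic, 0.02 with median centring and 0.04 with equal summed counts, and BCL2L11 for siRFX7 under DMSO turned from 0.03 to -0.03 with equal summed counts. The count of members called fell when a size of at least 0.5 on the log2 scale was also required: to 4 for Nutlin-3a in siControl cells, 7 of 8 in siRFX7 cells (without PMAIP1), 1 for siRFX7 under DMSO (MCL1) and 0 for siRFX7 under Nutlin-3a. When each statistic was divided by its robust SD over all genes, the counts were 3 for Nutlin-3a in siControl cells, 3 in siRFX7 cells, and 0 for siRFX7 under DMSO and under Nutlin-3a; the robust SD was 4.10, 4.10, 3.48 and 3.17 in the order given, so this setting counts only members far beyond the spread of all genes. BBC3, BAX and BCL2L1 remained in both Nutlin-3a comparisons. The share of all genes called in each comparison under the alternatives is not given here, so the members' counts cannot be set beside it. With siRFX7 under Nutlin-3a, BID and BCL2 passed when only genes whose base mean was 100 or more were adjusted (adjusted p = 0.0380 each), and BCL2 passed after median centring (0.0409). BMF had too low a base mean to be tested in the former. Scaling to equal summed counts, chosen after seeing the data, left the calls for Nutlin-3a as they were and gave 5 and 6 calls for siRFX7 under DMSO and Nutlin-3a, 4 of them shared with the deposited calls in each. No member was called for the difference of responses in any of the settings; for MCL1 the adjusted p ran from 0.0567 to 0.224. BIRC3 missed the rescaled threshold (-0.30, adjusted p = 0.0606). Leaving out a library could not be done. No paired analysis was possible because the tables hold no values of single libraries.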
